A study of Mus musculus with 11 samples.

Results

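The 9 genes described here act in meiotic strand exchange: Dmc1, Brca2, Psmc3ip, Mnd1, Meiob, Spata22, Rpa1, Rpa2 and Rad51ap2. They were chosen by symbol, and all 9 had a row among the 20265 nuclear genes of the deposited table of unique molecular identifiers (UMIs, random tags that mark the captured mRNA molecules). The cells came from testes of 3 adult, untreated mice carrying a Dazl-GFP reporter, green fluorescent protein (GFP) tied to the germ cell gene Dazl; no exact age or strain is used here. Live, GFP-positive cells were sorted singly into plate wells for SORT-Seq, which reads polyadenylated RNA from its 3′ end. Mouse 1 gave 768 wells in 8 CEL-Seq1 libraries, mouse 2 gave 384 wells in 1 CEL-Seq2 library, and mouse 3 gave 768 wells in 2 CEL-Seq2 libraries, 1 of them sorted by a gate without index data. The mouse was the replicate (n = 3), all comparisons were between stages of germ cell development, and protocol and mouse 1 cannot be told apart.

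In meiosis, programmed DNA breaks are cut back to single strands, which search the homologous chromosome for a matching sequence. RPA, a complex of Rpa1, Rpa2 and Rpa3, coats the bare strands first, together with its meiotic relative MEIOB and the MEIOB partner SPATA22. BRCA2 then helps to load the meiosis-specific recombinase DMC1, and the heterodimer of PSMC3IP (also called HOP2) and MND1 helps the DMC1 filament invade the partner duplex. This takes place during leptotene and zygotene of the first meiotic prophase, and recombination is completed in pachytene.

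Of the 1920 wells, 1448 held at least 1000 UMIs, and 1238 of these fell into 12 stages ordered by diffusion pseudotime. Neither the 9 genes nor the other genes listed below were among the variable genes used to cluster and order the cells. The class names came from marker genes. Of the genes in the lists below, Sycp1, Sycp2, Syce3, Tex12, Spo11 and Prdm9 were also leptotene and zygotene markers. Stage 1 was named undifferentiated and stage 2 differentiating spermatogonia-like, stage 4 preleptotene-like, stages 6 to 9 leptotene and zygotene-like, and stages 10 to 12 pachytene-like. Stages 3 and 5 had no clear class. Stra8 nonetheless led the genes that marked stage 5, not those of stage 4. Stage 5 also met the preleptotene-like rule once cells of other types were removed, as given below. Each of the 36 sums of UMIs over the cells of a mouse and stage held 13 to 65 cells and 145524 to 4148204 UMIs. Dazl stood between 237 and 3940 counts per 1000000 UMIs (CPM) in these sums, whereas the row for the reporter's GFP reached at most 9.54 CPM. When the cells were staged again from even-numbered autosomes, 30 of the 110 cells of stage 4, 10 of the 85 of stage 5 and 2 of the 121 of stage 2 grouped with Sertoli-like cells, which are somatic, and 10 of the 131 of stage 3 with spermatid-like cells. Summed over the 8 Sertoli markers, levels were 45.6 to 211 CPM at stage 4 and 272 to 725 CPM at stage 5, against 29.2 to 94.8 CPM at stage 2. Mean levels and steps at stages 4 and 5 are therefore also given without these cells, after the account of Brca2. Stage 9 carried the leptotene and zygotene name, yet X-linked genes made up only 0.215% to 0.454% of its UMIs, against 3.08% to 3.32% at stage 7, so it was also counted as pachytene-like.

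Gene models were read from GENCODE M21 on GRCm38. Dmc1 (chr15:79561497-79605109, minus strand, 14 exons) and Brca2 (chr5:150522630-150570329, plus strand, 27 exons) lie apart from other protein-coding genes. So do Mnd1 (chr3:84087933-84155786, minus), Meiob (chr17:24804289-24839788, plus), Rpa1 (chr11:75298166-75348324, minus), Rpa2 (chr4:132768332-132778752, plus) and Rad51ap2 (chr12:11456079-11462928, plus). Psmc3ip (chr11:101091823-101095436, minus) overlaps Mlx on the opposite strand at its 3′ end, and the strand setting of the counting is not given in the sources used here. Mlx itself stood at 4.44 to 36.2 CPM on average and was 14.0 ± 2.56 CPM (SD, n = 3) at stage 12, where Psmc3ip was 358 ± 12.7 CPM. Spata22 (chr11:73329741-73346044, plus) shares its 3′ end with the predicted gene Gm49340 on the same strand, so its counts could belong to either.

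The sequence just upstream of the start site was matched in RefSeq (GRCm38.p6) for 8 of the 9 genes, and 4 of these are shown because they stand for the different time courses described below. Dmc1 and Brca2 reached their highest levels at stage 6, Rad51ap2 at stages 6 to 8, and Psmc3ip from stage 9 on. Each run holds the 250 bases before the start site, read 5′ to 3′ on the gene's strand, at chr15:79605110-79605359 for Dmc1, chr5:150522371-150522620 for Brca2, chr12:11455805-11456054 for Rad51ap2 and chr11:101095436-101095685 for Psmc3ip. Capitals mark the motif matches.
Dmc1: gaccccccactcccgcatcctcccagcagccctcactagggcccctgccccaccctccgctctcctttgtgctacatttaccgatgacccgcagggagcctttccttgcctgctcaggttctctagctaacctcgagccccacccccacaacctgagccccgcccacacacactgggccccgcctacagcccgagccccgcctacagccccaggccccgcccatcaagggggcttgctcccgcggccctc
Brca2: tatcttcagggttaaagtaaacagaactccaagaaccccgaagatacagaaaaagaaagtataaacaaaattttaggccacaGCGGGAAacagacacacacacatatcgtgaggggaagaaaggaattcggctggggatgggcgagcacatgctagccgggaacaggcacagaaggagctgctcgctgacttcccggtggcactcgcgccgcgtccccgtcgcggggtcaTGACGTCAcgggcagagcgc
Rad51ap2: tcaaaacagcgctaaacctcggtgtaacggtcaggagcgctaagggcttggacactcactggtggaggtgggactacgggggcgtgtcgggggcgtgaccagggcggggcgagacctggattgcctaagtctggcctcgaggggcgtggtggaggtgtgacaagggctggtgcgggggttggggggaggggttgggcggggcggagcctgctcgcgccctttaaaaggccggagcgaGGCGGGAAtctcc
Psmc3ip: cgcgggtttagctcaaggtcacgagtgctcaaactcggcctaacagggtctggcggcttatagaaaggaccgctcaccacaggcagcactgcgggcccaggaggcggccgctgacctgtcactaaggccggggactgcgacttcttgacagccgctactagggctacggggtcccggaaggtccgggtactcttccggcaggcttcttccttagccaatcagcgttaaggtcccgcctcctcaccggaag
In all, 5 motif strings were searched on both strands of windows holding the 250 bases before the start, and every match given for the 8 genes lies there. The cAMP response element TGACGTCA was found in Brca2, 20 bases before the start, and in 1.55% of the 32851 promoters of the table. The E2F-type string GGCGGGAA was found in Rad51ap2, 13 bases before the start, and in 1.86% of all promoters. Its shorter core TTCCCGC, which overlaps that string, was found in Rad51ap2, in Brca2 (168 bases before the start) and in Rpa2 (37 bases before), and in 3.82% of all promoters. The STRA8-type string CNCCTCAG, held by 6.42% of promoters, and the MYB-type string AACTGNC, held by 10.6%, had no match in these windows of the 8 genes.

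All 9 genes varied over the stages. Over the 12 stages, 9 of 9 passed the edgeR F test at an adjusted p under 0.05, as did 89.4% of the 14479 genes tested, so passing this test is not particular to them. In these sums fewer cells expressing a gene and less RNA per cell cannot be told apart. Their time courses fell into different shapes: Dmc1 and Brca2 were highest at stage 6, Rad51ap2, Meiob and Mnd1 stood high over several leptotene and zygotene-like stages, Psmc3ip was highest from stage 9 on, and Rpa1 was lowest at stage 8, where Meiob, Mnd1 and Rad51ap2 stood high. Levels below are CPM, and fold changes are edgeR log2 values with TMM scaling and the mouse as a block, followed by the standard error (SE) and the adjusted p.

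**Figure D1:**
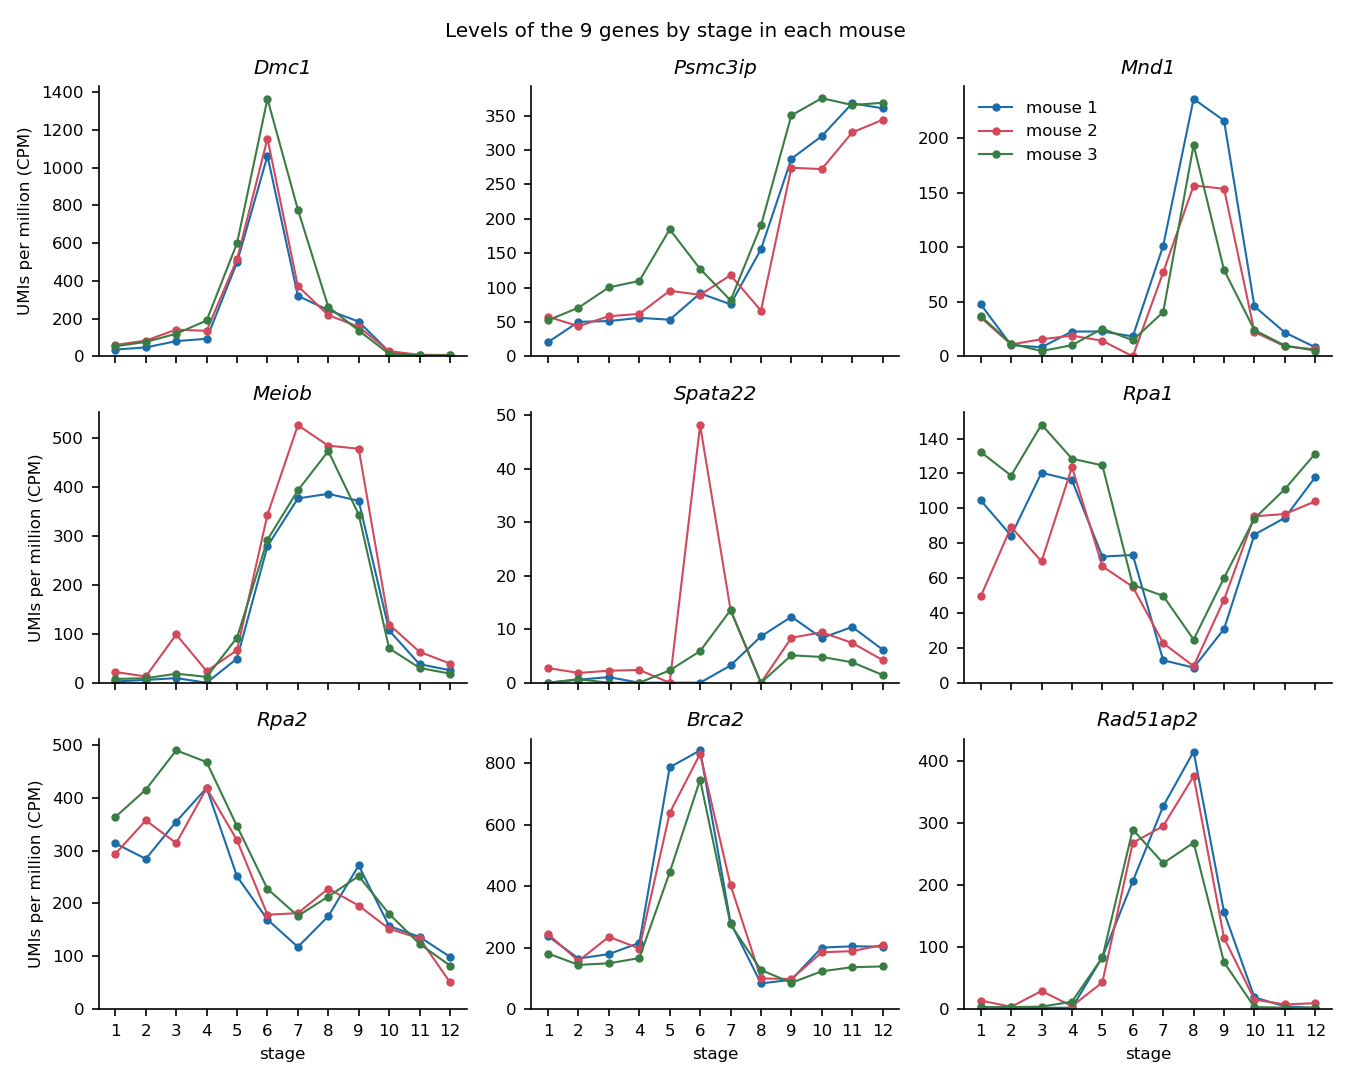
CPM (vertical axes, a separate scale per gene) of each of the 9 genes at stages 1 to 12 (horizontal axes), with 1 line for each of the 3 mice. Dmc1 and Brca2 are highest at stage 6 in all 3 mice, Mnd1 at stage 8 in all 3, and Rpa1 has its lowest level at stage 8 in all 3.

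Between spermatogonia-like stages and the preleptotene-like stage 4, Dmc1 and Psmc3ip were higher, 2 of 9 genes against 13.7% of all genes, and no member was lower by edgeR, by DESeq2 or at an unadjusted p under 0.05, against 17.0% of all genes lower by edgeR. From spermatogonia-like to leptotene and zygotene-like stages, 7 of 9 rose (25.2% of all genes) and 2 fell (37.9% of all genes). The 2 that fell were the RPA genes Rpa1 and Rpa2. From there to pachytene-like stages, 2 of 9 rose (40.0% of all genes), namely Psmc3ip and Rpa1, and 5 fell (20.2% of all genes), namely Dmc1, Mnd1, Meiob, Rpa2 and Rad51ap2. At stage 12 against stage 1, 4 of 9 were higher (36.3% of all genes), Psmc3ip, Meiob, Spata22 and Rpa1, and 3 were lower (33.4% of all genes), Dmc1, Mnd1 and Rpa2. The median log2 fold change of the 9 was 0.31, 1.88, -0.32 and 0.25 in these 4 comparisons in turn, against -0.13, -0.25, 0.34 and 0.11 over all genes.

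**Figure D2:**
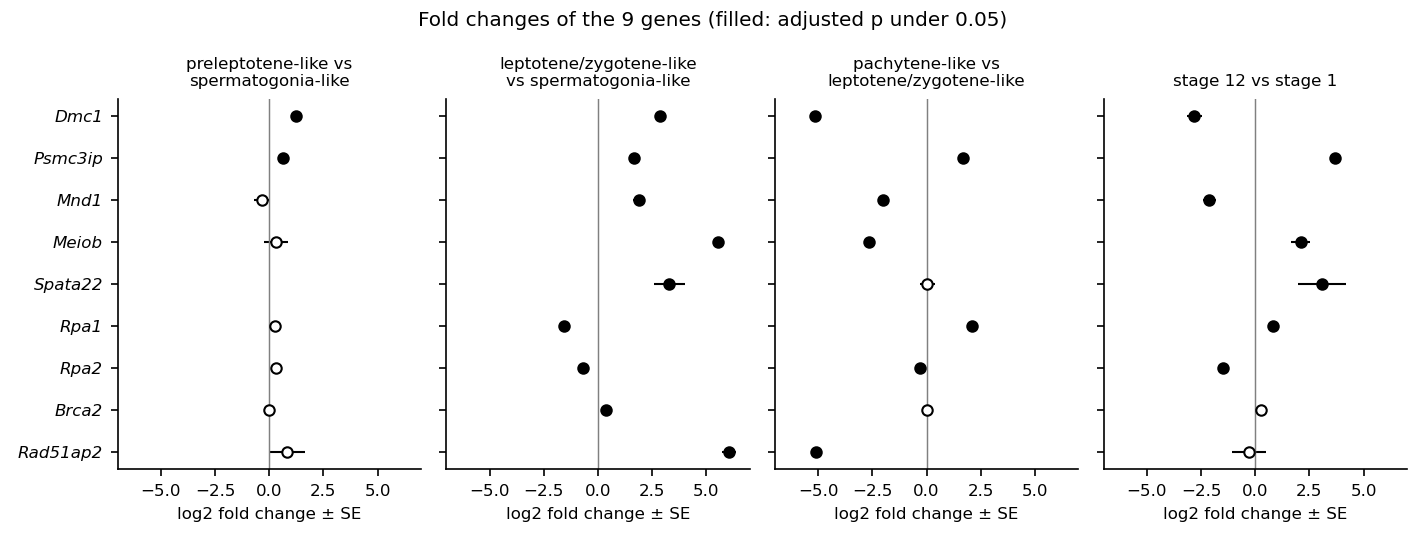
Log2 fold changes (horizontal axes) with SE bars of the 9 genes (rows) in 4 comparisons of stages, with filled points for an adjusted p under 0.05 and open points for the rest; Spata22 is left out of the preleptotene-like panel, where it had almost no UMIs. In the leptotene and zygotene-like panel 7 genes lie above 0 and 2 below, and Rad51ap2 lies farthest out, at 6.06.

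These splits depend on what a level is measured against. With ERCC spike-in UMIs (added in equal amount to each well) as the library size, the change of the median gene shifted by -1.10, -1.22, 2.11 and 1.22 in the same 4 comparisons. Cells held 9.501 to 48.4 UMIs per spike-in UMI at stage 7 and 145 to 451 at stage 12. The counts of members higher and lower became 0 and 4, 6 and 3, 5 and 3, and 5 and 2. Beside each gene below, its change relative to that median gene is given where the spike-in scale turned the direction of a called change.

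Comparing each stage with the one before placed the changes more closely; these 6 comparisons were added after the levels had been seen. At stage 5 against stage 4, 4 of 9 genes rose (Dmc1, Brca2, Meiob, Rad51ap2) and Rpa2 fell, against 20.3% of all genes changed. At stage 6, Dmc1, Meiob and Rad51ap2 rose further, 3 of 9 against 6.46%; Rpa2 also passed as lower by DESeq2, with library size alone, with spike-ins and without cells of other types. At stage 7, Mnd1 rose and Dmc1, Brca2 and Rpa1 fell, 4 of 9 against 12.6%. At stage 8, Mnd1 rose again and Dmc1 and Brca2 fell, 3 of 9 against 5.86%. On the spike-in scale 3 rose and 1 fell there, where the median gene changed by 0.34. At stage 9, Psmc3ip and Rpa1 rose and Rad51ap2 fell, 3 of 9 against 18.6%. On the spike-in scale 8 rose there, where the median gene changed by 1.33. At stage 10, Rpa1 and Brca2 rose and Dmc1, Mnd1, Meiob and Rad51ap2 fell, 6 of 9 against 18.8%.

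Dmc1 encodes the recombinase of meiosis. It stood at 36.1, 60.4 and 53.5 CPM in mice 1, 2 and 3 at stage 1, at 93.3, 135 and 190 CPM at stage 4. Stage 5 gave 498, 515 and 600 CPM. It peaked at stage 6, at 1062, 1154 and 1365 CPM, and stood at 320, 372 and 778 CPM at stage 7. At stage 10 it was down to 24.4, 27.1 and 13.5 CPM, and at stage 12 to 3.23, 7.43 and 5.06 CPM, on 12, 7 and 21 UMIs. Thus every mouse had its highest Dmc1 level at stage 6, and the 3 values there lay above those of every other stage. Its log2 fold change was 1.24 (SE 0.20, edgeR adjusted p = 5.2e-06) at the preleptotene-like stage and 2.85 (SE 0.15, adjusted p = 6.14e-22) in leptotene and zygotene-like stages, both against spermatogonia-like stages. It then fell by 5.16 (SE 0.15, edgeR adjusted p = 1.14e-31) into pachytene-like stages, 35.8-fold. The first of these was 0.13 (adjusted p = 0.644) with spike-ins, 1.34 above the median gene. The steps at stages 5 and 6 were 2.01 (SE 0.21) and 1.19 (SE 0.19), with edgeR adjusted p = 8.65e-10 and 6.15e-05, and the fall at stage 10 was -2.82 (SE 0.23, adjusted p = 5.08e-13). The smaller fall at stage 8, -0.75 (adjusted p = 0.0205), did not pass without mouse 2 (0.0633), without mouse 3 (0.351), without the mouse as a block, with reads or with spike-ins.

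Counted per cell, Dmc1 was all but universal at its peak. A UMI of Dmc1 was found in 98.7% ± 2.22 (SD, n = 3) of stage 6 cells. After each cell was thinned to 3000 UMIs, so that depth was equal, it was found in all 79 remaining cells of stage 6, that is 100% in each mouse, in 13.1% ± 13.3 of 70 cells of stage 1 and in 1.90% ± 3.30 of 83 cells of stage 12. Without thinning, the stage 12 share was 36.0% ± 10.97, with median depths of 54133 to 111164 UMIs per cell against 4822 to 10225.5 at stage 6.

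Brca2 encodes the mediator that helps to load DMC1. Its levels in mice 1, 2 and 3 were 237, 244 and 181 CPM at stage 1 and 216, 197 and 166 CPM at stage 4. They reached 788, 639 and 445 CPM at stage 5. They were highest at stage 6, at 843, 831 and 747 CPM. The lowest level fell at stage 8 in mouse 1 and at stage 9 in mice 2 and 3, and both stages ran from 83.6 to 127 CPM. From stage 10 on Brca2 stood at 123 to 209 CPM. In mouse 3 it then stood at 123 to 139 CPM, below its 144 to 181 CPM at stages 1 to 4, and stage 10 lay below stage 8. All 3 mice thus showed 1 peak at stages 5 and 6 between lower levels before and after. The rise at stage 5 was 1.71 (SE 0.17, edgeR adjusted p = 2.37e-10), the falls at stages 7 and 8 were -1.46 (SE 0.17, adjusted p = 1.52e-08) and -1.35 (SE 0.20, adjusted p = 1.87e-05), and the rise at stage 10 was 1.01 (SE 0.17, adjusted p = 1.91e-05). Averaged over classes the change was small. That into leptotene and zygotene-like stages was 0.36 (SE 0.11, edgeR adjusted p = 0.00306), and it did not pass with DESeq2, with reads, without mouse 2 (0.0712), without mouse 3 (0.273) or without the gate-sorted plate. With spike-ins it was -0.89, which is 0.52 above the median gene. The change into pachytene-like stages was 0.01 (SE 0.09, adjusted p = 0.957), but -0.66 (adjusted p = 9.08e-08) with stage 9 counted as pachytene-like.

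Removing the Sertoli-like and spermatid-like cells moved the mean level of each member at stages 4 and 5 by less than its SD over mice, except that of Rpa2 at stage 4, which went from 435 ± 28.3 to 475 ± 72.9 CPM. Dmc1 averaged 140 ± 48.5 CPM (SD, n = 3) at stage 4 with all cells and 137 ± 51.1 CPM without them, and at stage 5 it averaged 538 ± 54.4 and 569 ± 99.3 CPM. Brca2 averaged 624 ± 172 CPM at stage 5 with all cells and 661 ± 183 CPM without them. At stage 5 Meiob averaged 69.5 ± 21.5 CPM with all cells and 61.4 ± 17.6 CPM without them, and Rad51ap2 averaged 69.9 ± 23.4 and 72.4 ± 28.9 CPM. Psmc3ip averaged 75.8 ± 29.4 and 81.3 ± 41.2 CPM at stage 4, Mnd1 17.4 ± 6.42 and 20.01 ± 4.66 CPM, and Rpa1 123 ± 6.22 and 121 ± 4.44 CPM. All 5 steps called at stage 5 passed without these cells too. Dmc1 gave 2.08, Brca2 1.68, Meiob 2.52, Rad51ap2 3.36 and Rpa2 -0.64, with edgeR adjusted p-values of 5.23e-10, 6.85e-10, 5.34e-05, 8.28e-05 and 0.00439 in turn. At stage 4 against spermatogonia-like stages Rpa2 then joined Dmc1 and Psmc3ip as higher, at 0.44 (edgeR adjusted p = 0.0122). Without these cells stage 5 also met the rule for a preleptotene-like name. Counting it so made 5 of 9 genes higher than in spermatogonia-like stages, with Meiob at 1.52, Brca2 at 0.91 and Rad51ap2 at 2.61 beside Dmc1 at 2.23 and Psmc3ip at 0.96.

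Psmc3ip and Mnd1 encode the 2 subunits of a heterodimer, yet their mRNAs peaked at different stages. Mnd1 stood at 47.8, 35.7 and 37.0 CPM in mice 1, 2 and 3 at stage 1, and at 10.3 to 11.7 CPM at stage 2. It stayed at or under 25.4 CPM from stage 2 to stage 6, with no UMI in mouse 2 at stage 6. It then stood at 101, 77.2 and 40.7 CPM at stage 7 and peaked at stage 8, at 236, 157 and 194 CPM. At stage 9 it was 216, 154 and 79.3 CPM, and at stage 12 it was 8.34, 6.37 and 5.30 CPM. All 3 mice thus had a small level in the earliest stage, a gap, and 1 peak at stage 8. The log2 fold change into leptotene and zygotene-like stages was 1.88 (SE 0.26, edgeR adjusted p = 1.59e-08) and that into pachytene-like stages -1.99 (SE 0.25, adjusted p = 1.09e-09). On the spike-in scale the latter was 0.14 (adjusted p = 0.469), and relative to the median gene -2.21. The rises at stages 7 and 8 were 2.45 (SE 0.47) and 1.58 (SE 0.26), with edgeR adjusted p = 0.000163 and 8.33e-05, and the fall at stage 10 was -2.06 (SE 0.23, adjusted p = 1.01e-09). Without the mouse as a block the step at stage 8 gave an adjusted p of 0.0808.

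Psmc3ip showed no step down that passed the test. It stood at 20.6, 57.7 and 52.5 CPM in mice 1, 2 and 3 at stage 1, at 56.0, 61.8 and 110 CPM at stage 4 and at 156, 66.5 and 190 CPM at stage 8. It stood at 287, 274 and 350 CPM at stage 9 and at 361, 344 and 369 CPM at stage 12. From stage 9 on every mouse was above its own level of every earlier stage. Mean levels were 43.6 and 54.9 CPM at stages 1 and 2, 103, 91.7 and 137 CPM at stages 6, 7 and 8, and 304 CPM at stage 9. The rise into leptotene and zygotene-like stages given next thus rests in part on stage 9, whose X-linked share was low. Psmc3ip rose by 0.62 (SE 0.22, edgeR adjusted p = 0.0318) at the preleptotene-like stage, by 1.67 (SE 0.16, adjusted p = 4.53e-13) into leptotene and zygotene-like stages and by 1.68 (SE 0.11, adjusted p = 1.87e-18) into pachytene-like stages. The first of these did not pass without mouse 3 (adjusted p = 0.265), by DESeq2 (0.0598), with reads, without the gate-sorted plate or without the mouse as a block, and with spike-ins it was -0.49, 0.72 above the median gene. Stage 12 stood 3.70 (SE 0.23, edgeR adjusted p = 1.84e-19) above stage 1, or 12.98-fold, and the step at stage 9 was 1.20 (SE 0.21, adjusted p = 3.06e-05).

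Of the UMIs of Psmc3ip and Mnd1 together, Psmc3ip held 50.2% ± 17.4 (SD, n = 3) at stage 1 and 91.0% ± 8.42 at stage 6. The share was 39.7% ± 9.86 at stage 8 and 98.2% ± 0.42 at stage 12. In single mice the stage 8 share was 39.7% (95% Wilson interval 31.9 to 48.1), 29.8% (18.7 to 43.98) and 49.5% (42.7 to 56.3), intervals that cover counting error only. At stage 8 Mnd1 thus had more UMIs than Psmc3ip in mice 1 and 2 and about as many in mouse 3. At stage 12 Mnd1 had only 31, 6 and 22 UMIs beside 1340, 324 and 1529 of Psmc3ip.

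**Figure D3:**
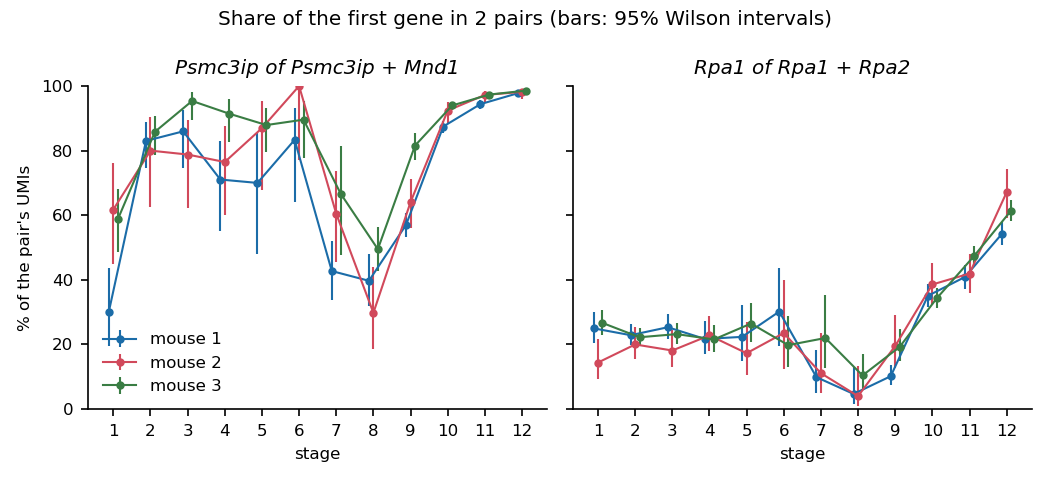
Percent of the UMIs of a gene pair that belong to the first gene (vertical axis, 0 to 100) at stages 1 to 12, for Psmc3ip with Mnd1 and Rpa1 with Rpa2, with 1 line per mouse and 95% Wilson intervals. Psmc3ip holds 29.8% to 49.5% of its pair at stage 8, and Rpa1 holds its largest share, 54.3% to 67.1%, at stage 12.

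Meiob encodes an RPA-like single-strand binding protein found in meiotic cells. At stage 1 it stood at 2.58, 22.0 and 7.78 CPM in mice 1, 2 and 3, on 2, 8 and 8 UMIs. It was 49.5, 66.8 and 92.3 CPM at stage 5. It reached 279, 344 and 292 CPM at stage 6, and between 344 and 527 CPM in every mouse at stages 7 to 9. At stage 10 it was 107, 119 and 70.4 CPM and at stage 12 25.6, 39.3 and 18.6 CPM. Meiob therefore held a plateau over 3 stages, and in each mouse these 3 levels lay above those of every other stage. One early value stood apart, 98.7 CPM in mouse 2 at stage 3 against 9.42 and 18.5 CPM in the other mice. The log2 fold change into leptotene and zygotene-like stages was 5.55 (SE 0.23, edgeR adjusted p = 4.2e-25), or 46.8-fold, and that into pachytene-like stages was -2.66 (SE 0.14, adjusted p = 4.02e-22). Stage 12 still stood 2.09 (SE 0.44, edgeR adjusted p = 5.37e-05) above stage 1. The rises at stages 5 and 6 were 2.74 (SE 0.50) and 2.10 (SE 0.32), with edgeR adjusted p = 4.34e-05 and 2.47e-05, and the fall at stage 10 was -1.85 (SE 0.23, adjusted p = 1.59e-08; 0.0505 without the mouse as a block).

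Spata22, whose product binds MEIOB, was hardly detected. It had 184 UMIs in the 36 sums, against 3392 of Meiob. Its highest level was 48.1 CPM in mouse 2 at stage 6, on 7 UMIs, where mice 1 and 3 had 0 and 2 UMIs. From stage 9 to stage 12 it was 1.45 to 12.3 CPM in all mice. Stages 1 to 5 held at most 1 UMI in any sum, and stage 8 held UMIs in mouse 1 only. Spata22 rose by 3.30 (SE 0.73, edgeR adjusted p = 0.000111) into leptotene and zygotene-like stages, but without mouse 1 the value was 1.91 with an adjusted p of 1. At stage 12 it was 3.07 (SE 1.09, adjusted p = 0.0112) above stage 1, and this did not pass without mouse 1 (0.264), without mouse 3 (0.0569) or without the mouse as a block. Depth therefore limits any statement on when Spata22 changed.

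The RPA genes were the members that fell into leptotene and zygotene-like stages. Rpa1, the large subunit, stood at 104.5, 49.4 and 132 CPM in mice 1, 2 and 3 at stage 1 and at 116, 124 and 128 CPM at stage 4. It was 12.9, 22.7 and 49.7 CPM at stage 7 and 8.65, 9.51 and 24.7 CPM at stage 8, on 3, 2 and 13 UMIs. At stage 10 it was 84.9, 95.4 and 94.1 CPM and at stage 12 118, 104 and 131 CPM. In every mouse the lowest level thus fell at stage 8, where Meiob and Rad51ap2 were high. Rpa1 fell by 1.56 (SE 0.17, edgeR adjusted p = 4.31e-11) into leptotene and zygotene-like stages and rose by 2.10 (SE 0.15, adjusted p = 2.12e-17) into pachytene-like stages. The fall at stage 7 was -1.38 (SE 0.41, edgeR adjusted p = 0.0172), and it did not pass without mouse 1 (0.525), without mouse 2 (0.0617) or without the mouse as a block. The rises at stages 9 and 10 were 1.57 (SE 0.39, edgeR adjusted p = 0.00245) and 1.23 (SE 0.23, adjusted p = 4.83e-05; 0.0674 without the mouse as a block). The difference between stages 12 and 1, 0.80 (SE 0.20, edgeR adjusted p = 0.000404), did not pass by DESeq2 (0.134), with library size alone, without mouse 2 (0.13) or without the mouse as a block.

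Rpa2, the middle subunit, was highest before meiotic prophase. Its levels in mice 1, 2 and 3 were 314, 294 and 364 CPM at stage 1, 419, 418 and 468 CPM at stage 4, 118, 182 and 176 CPM at stage 7, and 272, 196 and 252 CPM at stage 9. At stage 12 they were 99.0, 50.9 and 82.4 CPM, the lowest of all stages in each mouse. In each mouse the level at stage 7 lay below that at stage 8, but the single steps from stage 6 to stage 9 did not pass by edgeR with TMM scaling (adjusted p of 0.0501, 0.225, 0.0807 and 0.16 at stages 6, 7, 8 and 9). It fell by 0.71 (SE 0.10, edgeR adjusted p = 6.81e-08) into leptotene and zygotene-like stages, and its change from stage 1 to stage 12 was -1.495 (SE 0.16, adjusted p = 2.93e-11). The latter was -0.29 (adjusted p = 0.22) with spike-ins, and relative to the median gene -1.62. The change into pachytene-like stages, -0.32 (SE 0.10, edgeR adjusted p = 0.00362), was 1.82 with spike-ins (-0.54 relative to the median gene) and 0.031 with stage 9 counted as pachytene-like. The step at stage 5, -0.48 (SE 0.17, adjusted p = 0.0387), did not pass without mouse 1 (0.0547), without mouse 3 (0.0913) or without the mouse as a block. Rpa3, the small subunit, had few UMIs. It averaged 54.7 ± 10.2 CPM (SD, n = 3) at stage 4 and 12.03 ± 4.60 CPM at stage 12. Its log2 fold change from stage 1 to stage 12 was -0.90 (SE 0.34, edgeR adjusted p = 0.0166), and with spike-ins it was 0.33 (adjusted p = 0.405), where that of the median gene was 1.33. The change into pachytene-like stages turned likewise, from -0.06 (adjusted p = 0.877) to 2.06 (1.49e-12), where that of the median gene was 2.35.

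The balance of the RPA subunits' mRNAs had moved toward Rpa2 at stage 8 and moved toward Rpa1 from stage 10 on. Rpa1 held 22.0% ± 6.65 (SD, n = 3) of the UMIs of Rpa1 and Rpa2 at stage 1 and between 21.7% and 24.5% on average at stages 2 to 6. It held 6.36% ± 3.51 at stage 8, 36.0% ± 2.28 at stage 10 and 61.0% ± 6.40 at stage 12. In all 3 mice the share at stage 12 was above that of every earlier stage.

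Rad51ap2 was low before stage 5. Through stage 4 it had 1 to 13 UMIs per sum, and its levels stayed at or under 29.2 CPM. It stood at 83.7, 42.9 and 83.1 CPM in mice 1, 2 and 3 at stage 5, at 206, 268 and 289 CPM at stage 6 and at 415, 375 and 268 CPM at stage 8. At stage 9 it was 156, 115 and 75.4 CPM and at stage 12 1.61, 9.55 and 2.41 CPM. Mice 1 and 2 peaked at stage 8 and mouse 3 at stage 6, so the position of its highest level within stages 6 to 8 was not settled by these values. On the even-autosome stages, and per spike-in UMI, all 3 mice peaked at stage 8. Rad51ap2 rose by 6.06 (SE 0.31, edgeR adjusted p = 4.25e-22) into leptotene and zygotene-like stages, or 66.6-fold, and fell by 5.10 (SE 0.21, adjusted p = 6.46e-26) into pachytene-like stages, or 34.2-fold. Among the 9 genes it and Dmc1 had the largest falls there. The rises at stages 5 and 6 were 3.49 (SE 0.60, edgeR adjusted p = 2.08e-05) and 1.85 (SE 0.36, adjusted p = 0.000787; 0.093 without the mouse as a block). The falls at stages 9 and 10 were -1.48 (SE 0.28, edgeR adjusted p = 8.98e-05) and -3.19 (SE 0.34, adjusted p = 4.94e-10). The fall at stage 9 was -0.23 (adjusted p = 0.562) with spike-ins (-1.56 relative to the median gene) and did not pass with reads or without the mouse as a block.

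Ordered by their mean stage (the stage number weighted by CPM), the genes ran from Rpa2 at 5.24 ± 0.15 (SD, n = 3 mice) to Psmc3ip at 8.78 ± 0.34. Dmc1 at 5.97 ± 0.10, Brca2 at 6.05 ± 0.02 and Rpa1 at 6.27 ± 0.34 followed Rpa2, and then came Rad51ap2 at 7.12 ± 0.21, Mnd1 at 7.38 ± 0.18, Meiob at 7.59 ± 0.16 and Spata22 at 8.13 ± 1.21. The ranges over mice of Rpa2 and Dmc1 did not overlap, nor did those of Rpa1 and Rad51ap2. Dmc1, Brca2 and Rpa1 overlapped in turn and changed order between mice, so their order among themselves was not resolved. The ranges of Rad51ap2 and Mnd1 overlapped, as did those of Mnd1 and Meiob. Within each mouse, however, Rad51ap2, Mnd1 and Meiob came in this order. Their mean stages were 7.32, 7.57 and 7.77 in mouse 1, 7.12, 7.35 and 7.49 in mouse 2, and 6.91, 7.21 and 7.51 in mouse 3. The same held in each mouse on the even-autosome stages and per spike-in UMI. Because Brca2 and Rpa1 were present before and after, their mean stage is not their peak. On the even-autosome stages the order was the same, with Dmc1 at 6.04 ± 0.10 and Psmc3ip at 8.81 ± 0.40. Computed from UMIs per spike-in UMI the order changed. Dmc1 then came first at 6.17 ± 0.27 and Rpa2 next at 6.52 ± 0.19, Brca2 at 7.96 ± 0.10 came after Rad51ap2 at 7.68 ± 0.31, and Rpa1 at 8.66 ± 0.28 stood beside Meiob at 8.67 ± 0.15, with Psmc3ip last at 10.3 ± 0.07.

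**Figure D4:**
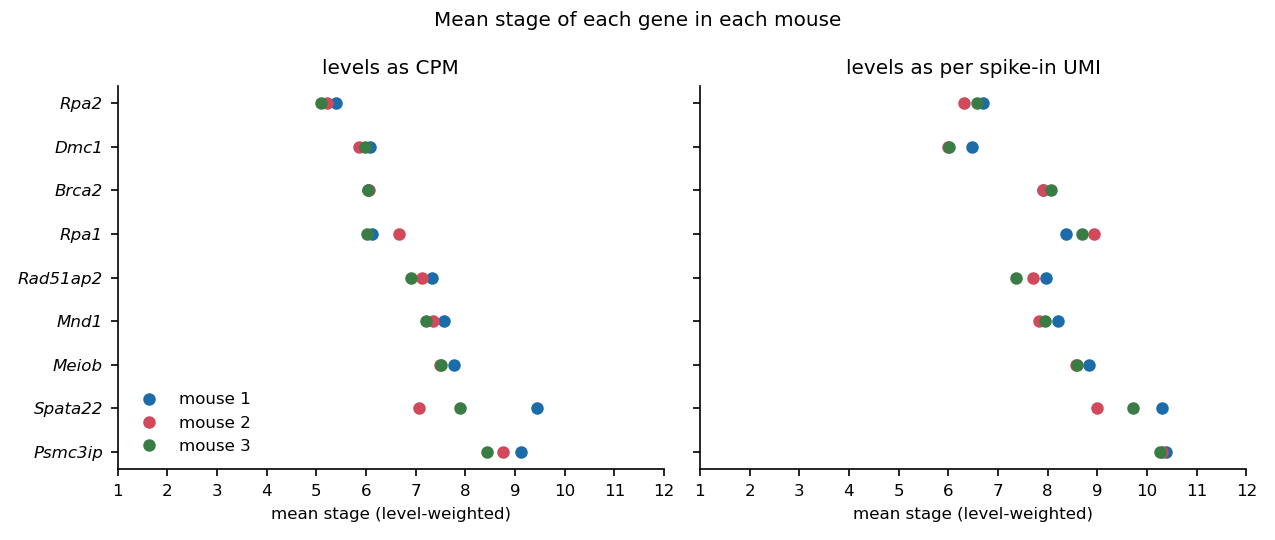
Mean stage of each gene (horizontal axes, 1 to 12) in each of the 3 mice (coloured points), from CPM on the left and from UMIs per spike-in UMI on the right. On the left Rpa2 lies lowest and Psmc3ip highest apart from Spata22 in mouse 1, and on the right Dmc1 and Psmc3ip form the ends.

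Per spike-in UMI the peaks were spread over a wider span. Dmc1 kept its peak at stage 6 in all 3 mice, at 3.75, 1.49 and 1.82 UMIs per 100 spike-in UMIs, and Rad51ap2 peaked at stage 8. Mnd1 and Meiob peaked at stage 9, 1 stage later for Mnd1 than by CPM. Psmc3ip, Rpa1 and Brca2 were highest at stage 12, Brca2 at 9.17, 3.04 and 2.04 UMIs per 100 spike-in UMIs there against 2.98, 1.07 and 0.995 at stage 6. These levels differed between mice by more than CPM did, so only changes within a mouse are read from them.

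**Figure D5:**
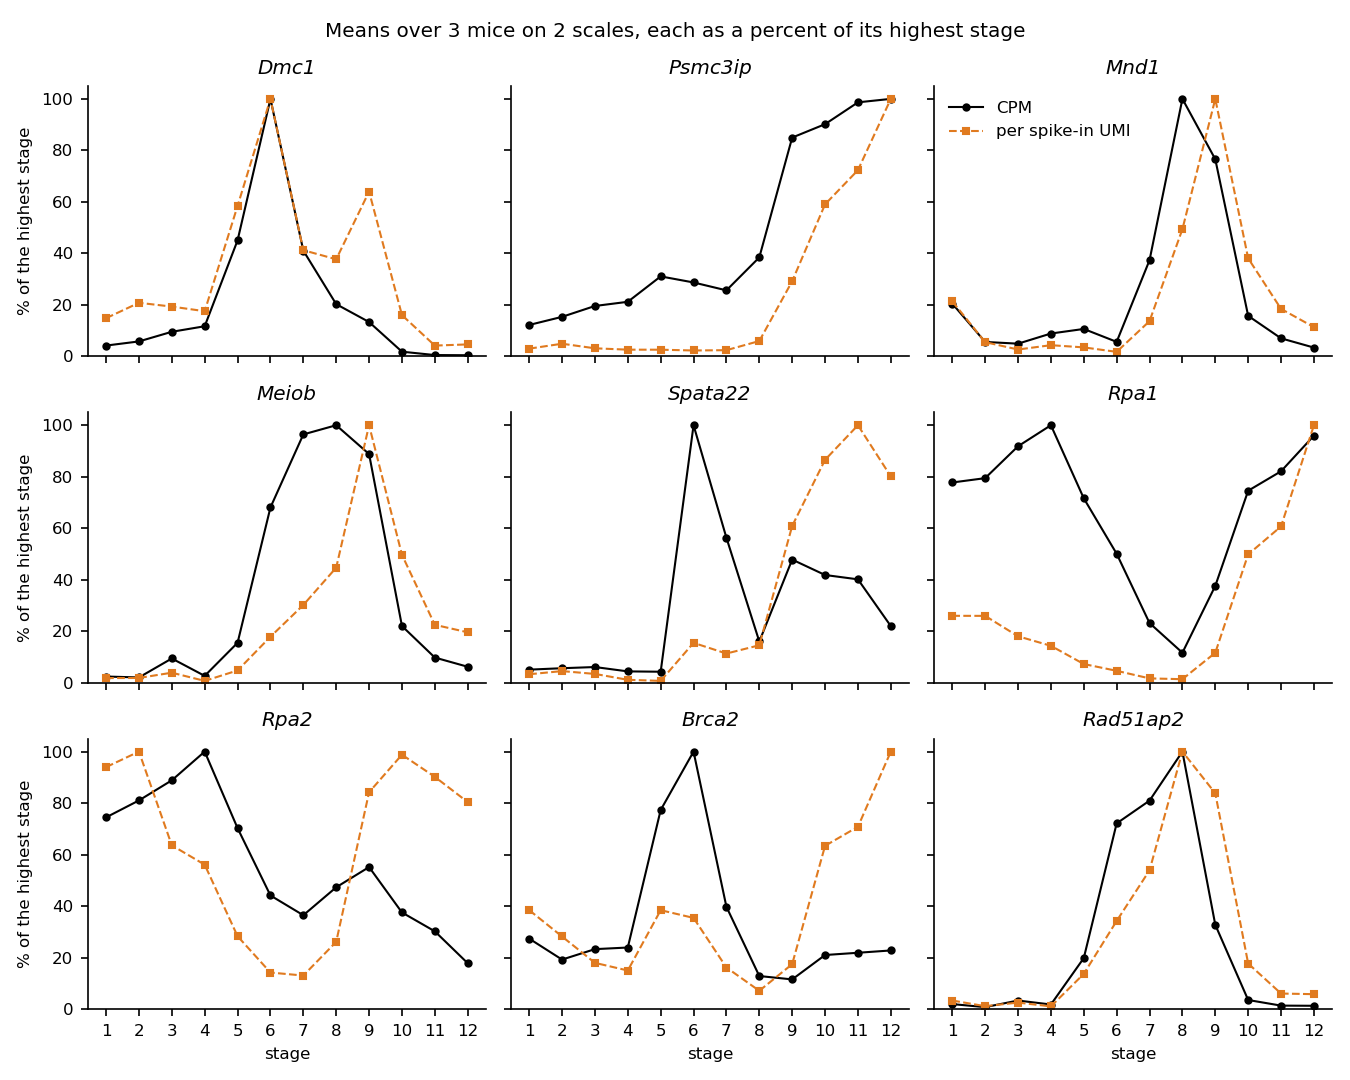
Mean level over 3 mice of each gene at stages 1 to 12, as a percent of its own highest stage, in CPM (solid) and per spike-in UMI (dashed). Dmc1 peaks at stage 6 on both scales, whereas Brca2 and Rpa1 are highest at stage 12 per spike-in UMI.

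Over the 36 sums, with each mouse centred on its own mean of log2(CPM + 1), the members most alike were Meiob and Rad51ap2 (Pearson r = 0.88) and Dmc1 and Rad51ap2 (0.76). Rpa1 ran opposite to Rad51ap2 (-0.80), Meiob (-0.74) and Mnd1 (-0.71). The physical partners were less alike than the closest pairs above: r was 0.50 for Meiob and Spata22, 0.14 for Rpa1 and Rpa2, and 0.08 for Psmc3ip and Mnd1. Dmc1 and Brca2, whose products act together, gave 0.51. The value for Meiob and Spata22 was still above that of most member pairs, and it rests on few UMIs of Spata22. These values are descriptions, since sums share mice, stages and depth. Outside the 9, the genes most like Dmc1 were Med21 (0.97), Fmr1nb (0.96) and Nfxl1 (0.95), and those most like Meiob were Trim41 (0.94) and the synaptonemal complex genes Sycp3 (0.93) and Sycp1 (0.91). Psmc3ip was most like Hspa4l (0.96), Mnd1 like Mov10l1 (0.88), Brca2 like Setdb1 (0.91), Rad51ap2 like Csf2ra (0.93), Rpa1 like Rogdi (0.91), Rpa2 like Cuta (0.94) and Spata22 like Ddx59 (0.77).

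The wider set of strand exchange partners held 22 genes, of which 21 were in the table, and all 21 were tested. Into leptotene and zygotene-like stages 5 of 21 rose (25.2% of all genes) and 6 fell (37.9%), with a median log2 fold change of -0.02. The largest rises were those of Hsf2bp, which encodes a BRCA2-binding protein of meiosis (2.06, SE 0.14, edgeR adjusted p = 1.43e-17), 4930432K21Rik (1.56, SE 0.21) and Fignl1 (1.49, SE 0.12). Into pachytene-like stages 14 rose (40.0% of all genes) and 4 fell (20.2%), median 0.54, led by falls of Rad51b (-3.96, SE 0.58) and BC055324 (-2.23, SE 0.17) and a rise of Rad54b (1.69, SE 0.13). At the preleptotene-like stage 3 rose and 2 fell, and at stage 12 against stage 1, 9 were higher and 5 lower. With spike-ins these splits became 1 and 16, 19 and 1, 0 and 17, and 15 and 2. The median gene then stood at -1.41, 2.35, -1.21 and 1.33 in turn. With library size alone the pachytene-like split was 6 and 4 and that of stage 12 was 8 and 8. The shares of all genes called under these scalings are not given here, so these splits are not read as particular to the partners.

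A further 4 lists were counted in the same way, and their difference from the members was not tested. The synaptonemal complex genes Sycp1, Sycp2, Syce3 and Tex12 and the break formation genes Spo11 and Prdm9 were also leptotene and zygotene markers. They helped to name the stages, so their rise into the stages so named is not an independent result. The counts of the lists are read against the same shares of all genes. These were 25.2% higher and 37.9% lower into leptotene and zygotene-like stages, and 40.0% and 20.2% into pachytene-like stages. Of 8 synaptonemal complex genes, which encode the axis and zipper that hold homologues together, 8 rose into leptotene and zygotene-like stages, with Sycp2 at 3.40 (SE 0.12) and Sycp3 at 3.32 (SE 0.11); 6 fell and Syce1 rose (1.35, SE 0.08) into pachytene-like stages. Of 6 tested genes of DNA break formation, 4 rose and 1 fell, Spo11 (3.71, SE 0.19) leading, and then 5 fell and 1 rose. Of 7 tested crossover genes, 6 rose, led by Msh4 (3.89, SE 0.23), and then 3 rose, Mlh3 (1.77, SE 0.12) the most, and 2 fell. Of 17 DNA replication genes, 10 fell and 3 rose, with Cdc6 at -4.02 (SE 0.34) and Mcm2 at -3.99 (SE 0.20), and then 6 rose and 4 fell. With spike-ins the splits into leptotene and zygotene-like stages were 5 and 1, 3 and 3, 4 and 1, and 0 and 17 in the same order of lists. Into pachytene-like stages 8, 4, 7 and 16 genes then rose and 0 passed as lower by edgeR on that scale, so these directions flip with the scaling. The median gene stood at -1.41 and 2.35 in these comparisons on that scale. The shares of all genes called there are not given here, so these splits are not read as particular to the lists. The median of mean stages was 5.04 for replication, 5.52 for break formation, 5.999 for strand exchange partners, 7.12 for the members, 7.38 for the synaptonemal complex and 7.89 for crossover genes.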

How the data were processed

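UMI counts and read counts per gene and well were deposited by the authors as whole-number counts; per the submitters' processing notes reads were mapped with BWA 0.7.10 to mm10, and the annotation and counting strand are not given in the sources used here. UMI counts were the main values, read counts an alternative, and the deposited transcripts were not used because the wells of mouse 1 stand in another order there. UMIs were summed over autosomes, X and Y, without spike-ins, mitochondrial genes, GFP and Rn45s. Wells with at least 1000 UMIs were kept, 545, 321 and 582 in mice 1, 2 and 3, with medians of 16275, 9830 and 14132.5 UMIs and 3.56, 4.22 and 3.55 reads per UMI. No 2 kept wells had identical counts, and plate wells hold 1 sorted cell each, so no doublet caller was run.

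Cells were staged on 1500 variable genes of odd-numbered autosomes, without the members and list genes, aligned across mice with Seurat 5.3.0 (15 dimensions) and clustered with scanpy 1.11.5 (Leiden resolution 1, 15 neighbours). A stage needed at least 10 cells in at least 2 mice and a median depth of at least 1/3 of all cells'. A class name needed at least 3 of its markers, each detected in at least 10% of the cells. Sums per mouse and stage were tested with edgeR 4.0.16 (quasi-likelihood, TMM, the mouse as a block because all its stages come from 1 animal, genes with a mean of at least 1 UMI per sum, Benjamini-Hochberg over all genes tested), a design checked on simulated data. Separate litters or days are not recorded for the mice, so the p-values measure the spread between these sums. DESeq2 1.42.0 was an alternative. The members, gene lists and tests were chosen with earlier results of these data known. All members were named; of each list, Rpa3 and the called genes of largest change; 1 gene that the rule also names is not reported here.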

Additional observations from a re-analysis of the deposited data

Results flagged for a closer look

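UMIs of the 9 genes were also present in wells that no comparison used. The 472 wells under 1000 UMIs held 176 UMIs of the 9 genes, of which 46 were Rpa2 and 38 Brca2. A further 3 clusters were left out of the stages for low depth. Cluster 7, with 95 wells, held 628 UMIs of the 9 genes, and its levels of Meiob (273 CPM), Psmc3ip (273 CPM) and Mnd1 (188 CPM) were high while Dmc1 stood at 132 CPM. Cluster 12, with 79 wells, held 132, and cluster 14, with 36 wells, held 81. There are no control wells. Each of these counts exceeds the 3 UMIs that a count of 0 allows, but this bound is not a background level. It therefore does not show that the cells of these wells expressed the genes.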

How the results depend on the processing

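The fold changes recomputed under each alternative were those called in the main fit and a few others. The others were Brca2 between classes and from the earliest to the latest stage, and Meiob and Rad51ap2 at the preleptotene-like stage. Of these, 863 kept their direction and side of the threshold, 38 no longer passed, 6 newly passed and 30 changed sign, most of them for Brca2, whose class changes were near 0. Other uncalled changes were not counted, so the 6 leave out Rpa2 at the preleptotene-like stage and at stage 6, which passed without cells of other types. The number of members called at the preleptotene-like stage, 2, was 1 by DESeq2, with read counts and with no replicate block, 4 with spike-ins, 1 to 2 when a mouse was left out, and 5 without other cell types and with classes named again. The calls at stage 8, 3, became 1 with no replicate block, and those at stage 9, 3, became 8 with spike-ins. With spike-ins the median gene changed by -1.21 at the preleptotene-like stage and by 1.33 at stage 9.

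Signs changed with spike-ins for Brca2 into leptotene and zygotene-like stages (-0.89), and for Mnd1 (0.14) and Rpa2 (1.82) into pachytene-like stages. At the preleptotene-like stage they changed for Psmc3ip (-0.49), Meiob (-0.78), Brca2 (-1.12) and Rad51ap2 (-0.25). The median gene moved too, and stood at -1.41, 2.35 and -1.21 in these comparisons in turn. Brca2 was -0.072 into leptotene and zygotene-like stages at Leiden resolution 0.6. Rpa2 was 0.031 with stage 9 counted as pachytene-like. Brca2 into pachytene-like stages, 0.01, was -0.24 by DESeq2, -0.37 with library size alone, -0.15 with filterByExpr, -0.066 without the gate-sorted plate, -0.0040 with sums of at least 20 cells, -0.028 without other cell types with old or new names, -0.66 with stage 9 moved, -0.21 on even autosomes and -0.11 without alignment. Brca2 at the preleptotene-like stage was -0.087 by DESeq2 and -0.045 with filterByExpr, and at stage 12 against stage 1 it was -0.16 by DESeq2 and -0.28 with library size alone. The causes were not tested. Leaving out 1 mouse at a time gave -0.28 to 0.13 for Brca2 into pachytene-like stages. At the preleptotene-like stage it gave -0.052 to 0.49 for Meiob, -0.046 to 0.041 for Brca2 and -0.14 to 1.39 for Rad51ap2, and at stage 12 against stage 1 -0.034 to 0.14 for Brca2.

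All stages of a mouse come from the same animal, and the replicate block is that mouse. With no replicate block 9, 7, 1 and 5 members were called at leptotene and zygotene-like, pachytene-like, preleptotene-like and latest stages. Even-autosome staging, the lower resolution and staging without alignment gave no preleptotene-like or stage-to-stage comparison. Depth limits Spata22 (184 UMIs) and Rpa1 at stage 8 (18 UMIs).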
